A study of Homo sapiens with 4 samples.

Results

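The genes described are subunits of NF-κB, all but REL, and regulators of the pathway, among them inhibitors that NF-κB switches on to restrain itself. They are 10 genes in all: NFKB1, NFKB2, RELA, RELB, NFKBIA, NFKBIE, NFKBIZ, TNFAIP3, TNIP1 and BIRC3. They were chosen by name and not by a threshold on their values, but with earlier results of these data known. All probes other than control probes whose gene name in the array files is one of these symbols were taken. This gave 10 of 25992 gene names, 11 of 34127 probes and 47 of the 43118 spots on each array. The study asked how the SGLT2 inhibitor empagliflozin (Empa) changes the response of human proximal tubular cells (HPTCs) to the cytokine IL-1β at normal glucose. RNA levels were measured on 1-colour Agilent arrays after HPTCs had spent 24 h without serum or supplements and a further 24 h with both IL-1β, at 10 ng/mL, and Empa, at 500 nM. The labels give 2 arrays to HK-2, a proximal tubular line immortalised with papillomavirus E6 and E7 genes, and 2 to RPTEC/TERT1, a proximal tubular line immortalised with telomerase (TERT). The replicate numbers of the labels are used here as array numbers, so that HK-2 array 1 is the sample labelled as the first HK-2 replicate. Each line is an established culture that was grown in its own medium, and the methods call the duplicates biological. Both groups received IL-1β and Empa, and untreated cells and cells given only IL-1β were not analysed here. A level below therefore says how abundant an RNA was in stimulated cells and not how far IL-1β or Empa moved it.

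NF-κB is a family of dimeric transcription factors that IκB proteins hold in the cytoplasm. IL-1β, through its receptor, MYD88 and the IRAK and TRAF6 proteins, activates the IκB kinases, which mark IκB for destruction and free the dimers to enter the nucleus and bind κB sites in DNA. Several of the genes switched on this way encode new IκB, ubiquitin-editing proteins and NF-κB precursors, so that the pathway limits and reshapes its own output, and in proximal tubular cells it drives the chemokines of tubular inflammation.

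The level of a gene is log2 of its processed spot signal over the 75th percentile of the array, so that 0 is the brightness of the 75th-percentile spot and 1 unit is a 2-fold change. Levels of different probes are not on a common scale, so the level of each gene is compared between arrays and not with another gene. Summed signals of gene lists are also compared only between arrays. The 75th percentile itself lay between 393 and 748 signal units over the 4 arrays, 59.2% to 64.9% of spots were well above background, and the probes spotted 10 times had a median SD of 0.082 to 0.14 on the log2 scale within an array. The arrays did not group by their labels. Across 17928 genes the Pearson correlation of levels was 0.980 for HK-2 array 1 with RPTEC/TERT1 array 2 and 0.976 for HK-2 array 2 with RPTEC/TERT1 array 1. Within a label it was 0.865 (HK-2) and 0.855 (RPTEC/TERT1). Genes are not independent replicates, and these correlations are a description. Arrays are named by their labels throughout, with no claim about which cells they held. Of 8 proximal tubule markers, LRP2, GGT1 and SLC5A2 were well above background on all 4 arrays, AQP1 on 3, ANPEP on 2, SLC34A1 on 1, and CUBN and SLC22A6 on none. Of 4 epithelial markers, KRT8, KRT18 and EPCAM were well above background on all 4 arrays, and CDH1 on 2.

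Of these genes 5 carry a κB sequence shortly before their start, and the sites are shown because such DNA is what NF-κB is known to bind at its own regulators. The promoters were those of RefSeq on GRCh38.p14, from 250 bases before to 50 bases after the annotated start, and 8 of the 10 genes were in the table, all but RELB and NFKBIE. The NF-κB consensus (κB, searched by name on both strands) was found in 5 of the 8 promoters, NFKB1, NFKBIA, NFKBIZ, TNFAIP3 and BIRC3, and in 5.72% of all 27305 promoters. Of the 10606 promoters of genes tested here, 6.58% held it. NFKB2, RELA and TNIP1 had no match in this window. Each sequence is given 5′ to 3′ on the strand of its gene with 25 bases on either side, and capitals mark the consensus matches, which read as the reverse complement where the match lies on the other strand.
NFKB1, chr4:102501285-102501344 (+ strand): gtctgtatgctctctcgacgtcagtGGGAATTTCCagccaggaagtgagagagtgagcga
NFKBIA, chr14:35404796-35404855 (- strand): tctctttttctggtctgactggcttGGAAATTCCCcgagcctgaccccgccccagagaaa
NFKBIZ, chr3:101827742-101827801 (+ strand): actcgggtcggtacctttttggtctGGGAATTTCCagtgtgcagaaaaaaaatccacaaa
TNFAIP3, chr6:137867167-137867238 (+ strand): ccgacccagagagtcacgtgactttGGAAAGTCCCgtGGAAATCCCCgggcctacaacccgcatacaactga
BIRC3, chr11:102317260-102317383 (+ strand): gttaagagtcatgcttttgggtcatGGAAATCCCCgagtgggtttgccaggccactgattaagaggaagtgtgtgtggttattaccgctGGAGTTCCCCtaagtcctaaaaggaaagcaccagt

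NFKB1, NFKBIA and NFKBIZ hold the same 10 bases, GGGAATTTCC, on the strand of the gene in NFKB1 and NFKBIZ and on the other strand in NFKBIA. Counted from the start base as 0, the match covers positions -49 to -40 in NFKB1, -81 to -72 in NFKBIA and -223 to -214 in NFKBIZ. TNFAIP3 has a pair of matches on the other strand, GGGACTTTCC at -67 to -58 and GGGGATTTCC at -55 to -46. BIRC3 also has a pair on the other strand, GGGGATTTCC at -199 to -190 and GGGGAACTCC at -135 to -126, and the first of these is the same 10 bases as the second match of TNFAIP3. A match is a description of the letters and not a measured binding site.

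**Figure D1:**
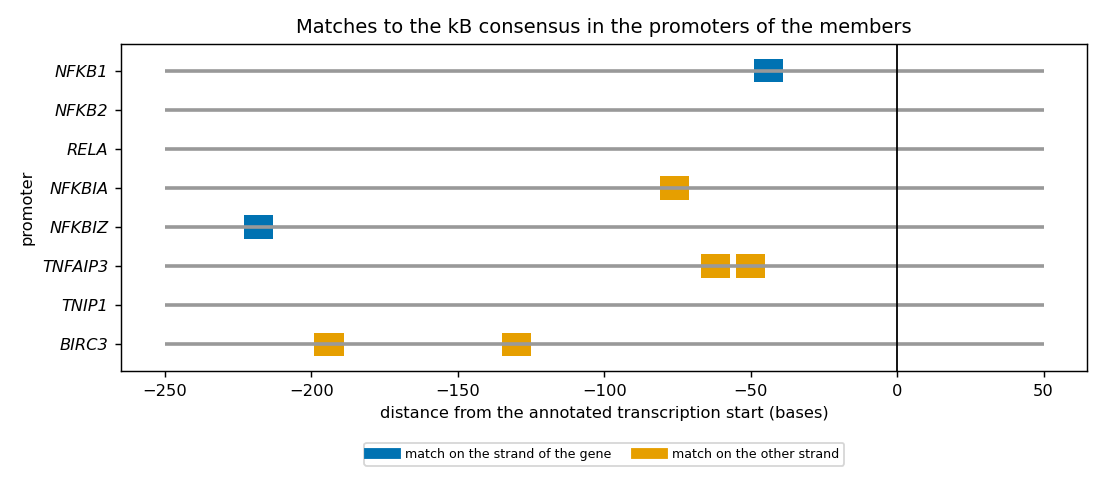
Positions of the matches to the NF-κB consensus in the 8 promoters found in RefSeq, by distance from the annotated transcription start in bases; blue boxes are matches on the strand of the gene and orange boxes matches on the other strand. NFKB1, NFKBIA and NFKBIZ have 1 match each, TNFAIP3 and BIRC3 have 2 each, and NFKB2, RELA and TNIP1 have none.

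All 10 genes gave a signal above background, and the spread between spots could be measured for 4 of the 11 probes. Each of the 11 probes was well above background on all 4 arrays, its transcript is listed in RefSeq under the same symbol, 0 of 188 spot readings were saturated and 2 of 188 were left out as outliers. Probes are 60 bases long and lie, on GRCh37, at chr4:103537856-103537915 for NFKB1, chr19:45541385-45541444 for RELB, chr14:35870788-35870847 for NFKBIA, chr6:44226558-44226617 for NFKBIE, chr3:101578904-101578963 for NFKBIZ, chr6:138203679-138203738 for TNFAIP3, chr5:150409766-150409825 for TNIP1 and chr11:102208356-102208415 for BIRC3. Which exon or untranslated part each probe lies in was not annotated here on that build. The NFKB2 probe is shown because its 60 bases map over 177 bases of the genome and so skip a stretch of it, and the second RELA probe because it measures RELA independently of the first, at chr11:65421651-65421710, which was spotted 10 times.
NFKB2 probe, chr10:104161053-104161229 (+ strand): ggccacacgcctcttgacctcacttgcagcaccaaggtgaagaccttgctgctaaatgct
RELA second probe, chr11:65421986-65422045 (- strand): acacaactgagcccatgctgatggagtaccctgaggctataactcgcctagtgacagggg

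All 4 subunit genes differed more between arrays of the same label than between the means of the labels, and RELA had the narrowest range of them. NFKB1 encodes p105, the precursor of the p50 subunit that lacks an activation domain of its own. Its level was 3.34 and 1.18 on HK-2 arrays 1 and 2, and 1.30 and 3.11 on RPTEC/TERT1 arrays 1 and 2. One array of each label was high and the other low, a 4.47-fold span in all, and the labels overlapped. In bulk RNA a change in the number of cells that make an RNA and a change in the RNA per cell cannot be told apart. The mean level of NFKB1 was 2.26 ± 1.53 (SD, n = 2) on the HK-2 arrays and 2.20 ± 1.28 (SD, n = 2) on the RPTEC/TERT1 arrays.

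RELB, the subunit that pairs with p52 in the non-canonical branch of the pathway, had levels of 4.50, 2.77, 2.64 and 4.50 in the same order of arrays, which is kept for all values that follow. Its highest readings, on HK-2 array 1 and RPTEC/TERT1 array 2, differed by 0.0056 on the log2 scale and its lowest by 0.13, while the step between them was at least 1.73. NFKB2, which encodes p100, both the precursor of p52 and an inhibitor of RELB, stood at 0.49, -1.94, -1.07 and -0.28. Its highest array was again HK-2 array 1, yet RPTEC/TERT1 array 2 lay 0.77 below that array. HK-2 array 2 was in turn 0.88 below RPTEC/TERT1 array 1, so that NFKB2 spanned 5.42-fold between the HK-2 arrays and 1.72-fold between the RPTEC/TERT1 arrays.

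RELA encodes p65, the subunit of the classical dimer that carries the strong activation domain, and in most cells its RNA is steady while the protein is regulated by its location. Its level, the mean of its probes, was -0.22, -1.39, -1.06 and -0.40, a span of 2.25-fold (1.17 on the log2 scale, and 0.53 without scaling between arrays). The probe spotted 10 times read 0.20, -0.92, -0.76 and 0.0019, and the probe spotted once read -0.64, -1.86, -1.37 and -0.80. Both probes put the arrays in the same order, with HK-2 array 1 highest and HK-2 array 2 lowest. REL, the remaining member of the Rel family, ranged over 0.55 on the log2 scale, with levels of -0.71, -1.27, -1.23 and -1.01. Its range was 0.25 without HK-2 array 1 and 0.99 with normexp.

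**Figure D2:**
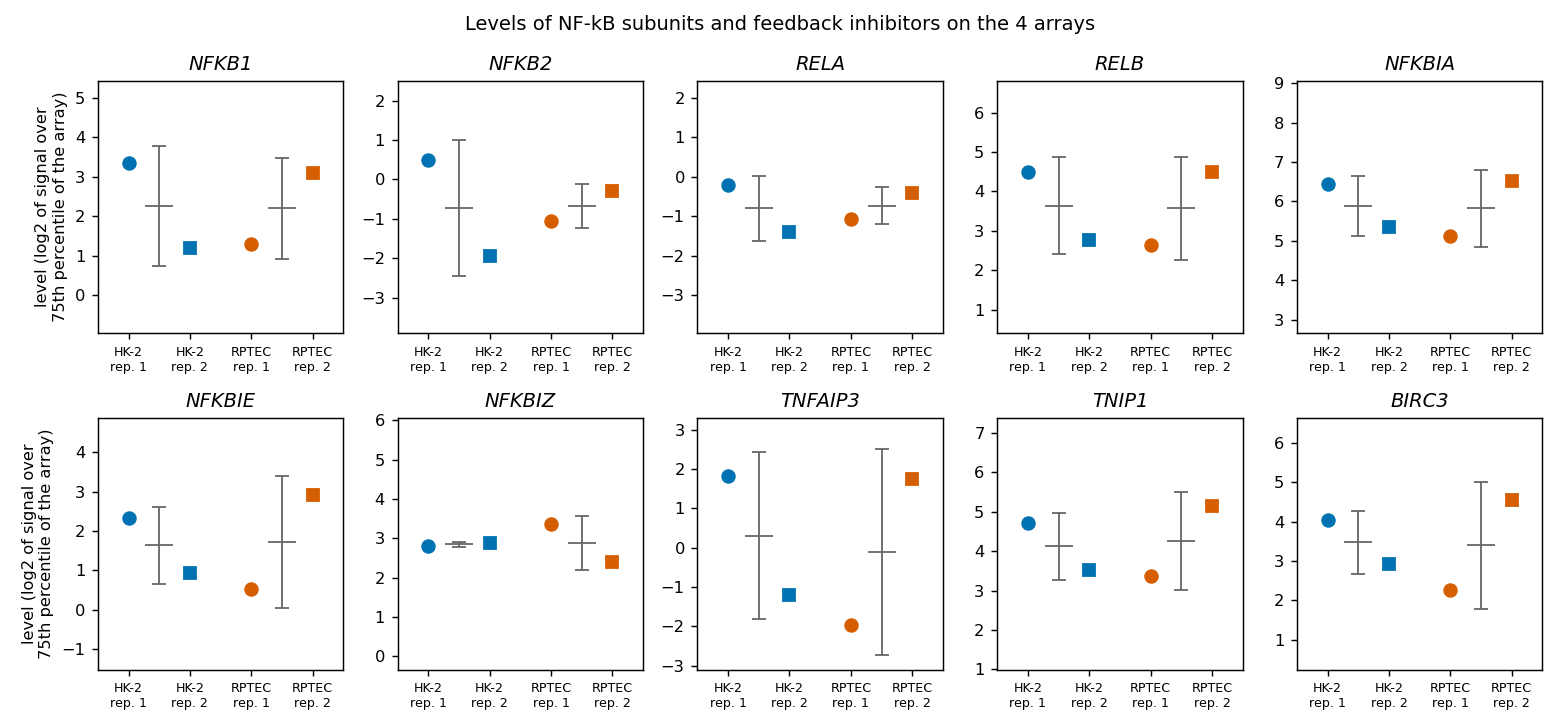
Level (log2 of signal over the 75th percentile of the array) of each of the 10 genes on the 4 arrays; points are arrays, horizontal lines with bars are the mean and SD of each label (n = 2), and every panel spans the same number of log2 units. One array of each label is high and the other low for NFKB1, RELB, TNFAIP3 and most others. NFKBIZ runs the other way between the RPTEC/TERT1 arrays and is nearly level between the HK-2 arrays.

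The IκB genes did not move as 1 block. NFKBIA encodes IκBα, the inhibitor that is made anew soonest after activation and that pulls NF-κB out of the nucleus. Its level was 6.43, 5.36, 5.13 and 6.52, which is high on HK-2 array 1 and RPTEC/TERT1 array 2 and overlaps between the labels. The whole span was 2.62-fold. NFKBIE encodes IκBε, a slower inhibitor of the same kind, and its level was 2.33, 0.93, 0.53 and 2.91. It differed 5.18-fold within RPTEC/TERT1 and 2.63-fold within HK-2.

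NFKBIZ encodes IκBζ, a nuclear IκB protein that works with NF-κB on secondary response genes such as LCN2 and does not hold NF-κB in the cytoplasm. Its level was 2.80, 2.89, 3.37 and 2.39, a range of 0.98 on the log2 scale (1.97-fold). This was the narrowest of the 10 genes, but not with normexp (1.52) or without scaling (1.30), where RELA was narrowest, nor without HK-2 array 2, where RELA was at 0.84, nor with quantile normalization (1.17), where NFKBIA was. The range fell to 0.49 without RPTEC/TERT1 array 1 and to 0.56 without RPTEC/TERT1 array 2. It was highest on RPTEC/TERT1 array 1 and lowest on RPTEC/TERT1 array 2, while for the other 9 genes the first of these arrays was among the 2 lowest and the second among the 2 highest. The HK-2 arrays differed by 0.081 for this single spot, less than the median spot SD of 0.11 and 0.10 on those arrays, and its direction within that label is not resolved. Without scaling between arrays the HK-2 arrays differed by 1.01 for NFKBIZ, with replicate 2 the higher. LCN2, lipocalin of the injured tubule, was at 5.70, 5.21, 5.31 and 5.15.

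TNFAIP3 had the widest range of the 10 genes. It encodes A20, the ubiquitin-editing enzyme that takes activating ubiquitin chains off RIPK1 and TRAF6. The deposited signals were 1380, 326, 126 and 1435, and the levels were 1.81, -1.20, -1.95 and 1.74. HK-2 array 1 and RPTEC/TERT1 array 2 were within 0.068 of each other, and the highest array exceeded the lowest 13.6-fold. This range of 3.76 on the log2 scale, from a probe with a single spot, fell to 2.92 with the deposited values and 3.09 with normexp. TNIP1 encodes ABIN-1, which binds A20 and ubiquitin chains and helps A20 to its targets, and its level was 4.72, 3.52, 3.37 and 5.14, a span of 3.40-fold. BIRC3 encodes cIAP2, a ubiquitin ligase that acts both in the signal from TNF receptors and in holding down the non-canonical pathway, and its level was 4.03, 2.91, 2.26 and 4.54, a span of 4.85-fold. For TNIP1 and BIRC3 the highest array was RPTEC/TERT1 array 2 and the lowest RPTEC/TERT1 array 1, and the labels overlapped for all 3 genes.

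**Figure D3:**
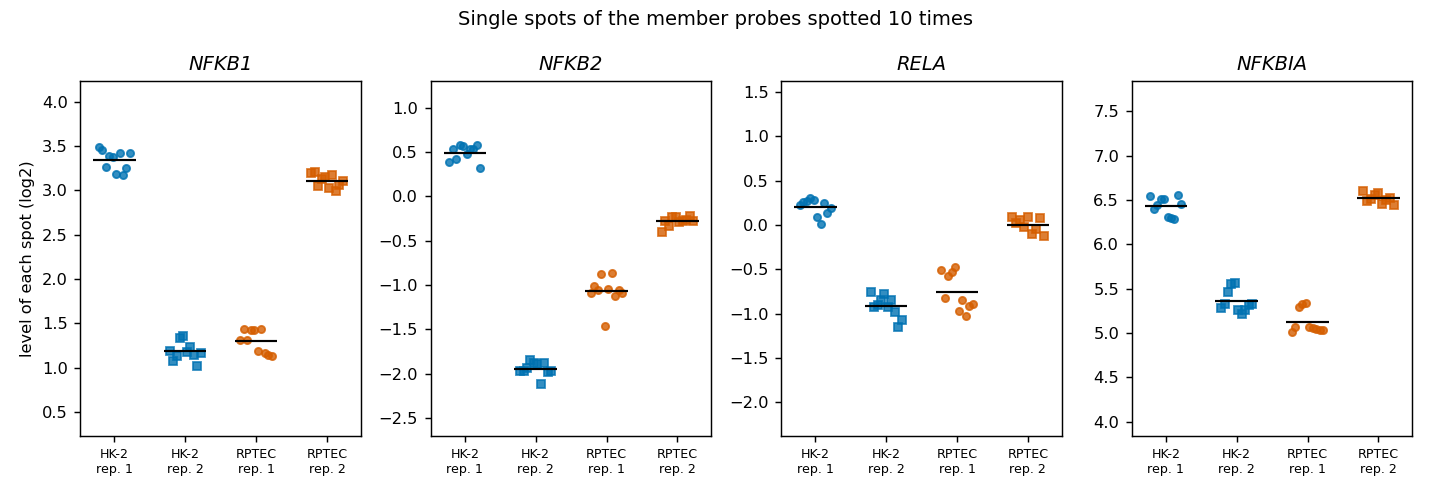
Level of every single spot (log2, outlier spots left out) of the probes for NFKB1, NFKB2, RELA and NFKBIA that were spotted 10 times on each array, with the mean as a line. For each of these genes the spots of HK-2 array 1 and RPTEC/TERT1 array 2 lie clear of those of the other arrays. Spots are repeat readings of 1 RNA sample and not replicates of a condition.

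The spread between the arrays exceeded that between spots. For the 4 probes spotted 10 times the SD of the spots within an array was 0.053 to 0.21 on the log2 scale, against spans between arrays of 2.16 for NFKB1, 2.44 for NFKB2, 1.39 for NFKBIA (0.83 with quantile normalization) and 1.12 for the RELA probe, whose spots had the SD of 0.21 on RPTEC/TERT1 array 1. This spot error covers hybridisation and reading of 1 labelled sample and leaves out culture, RNA isolation and labelling. The other 7 probes had a single spot an array.

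The comparison of the labels asks whether the regulators differed between the arrays labelled HK-2 and those labelled RPTEC/TERT1. No difference larger than the spread between arrays was found for any of the 10 genes. Each label held 1 array of each pair of alike arrays, so the comparison cannot say whether the cell lines differed. With limma, 0 of the 10 genes passed an adjusted p of 0.05 (all 10 at an adjusted p of 1), and 0% of the 16468 genes tested did. At an unadjusted p under 0.05 it called 0 of the 10 and 0.14% of all genes (23 genes). The difference HK-2 minus RPTEC/TERT1 was largest for TNFAIP3, at 0.41 with a standard error of 1.68, from mean levels of 0.31 ± 2.13 (SD, n = 2) and -0.10 ± 2.61 (SD, n = 2). For the other 9 genes it lay between -0.13 (TNIP1, standard error 0.84) and 0.071 (NFKBIA, standard error 0.73). The standard errors ran from 0.54 for NFKBIZ to 1.68 for TNFAIP3, so a 2-fold difference between the labels could have gone unseen. Leaving out 1 array at a time turned the sign of the difference for each of the 10 genes, and the median over the 10 then ran from -0.85 to 0.87. With all 4 arrays the median difference was 0.014 over the 10 genes and 0.017 over all genes tested. The arrays of the labels failed to overlap for 0 of the 10 genes, against 7.17% of all genes.

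Because the means of the labels average a high and a low array, the single arrays say more. HK-2 array 1 and RPTEC/TERT1 array 2 were the 2 highest arrays for 9 of the 10 genes, all but NFKBIZ, and for 38.9% of all genes tested. The opposite order, with HK-2 array 2 and RPTEC/TERT1 array 1 highest, held for NFKBIZ and for 33.2% of all genes. For NFKBIZ it rests on a difference of 0.081 between the HK-2 arrays, whose direction is not resolved. With normexp background correction NFKBIA and BIRC3 also left the first order, which then held for 7 of the 10 genes, and under every other alternative for the levels, scaling included, it held for 9. The range over the 4 arrays passed 1 on the log2 scale for 9 of the 10 genes and for 52.9% of all genes, and it passed 2 for 5 of the 10 (NFKB1, NFKB2, NFKBIE, TNFAIP3 and BIRC3) and for 18.1% of all genes. With normexp, the deposited values or no scaling NFKB1 and NFKB2 fell short of 2, which left 3 of the 10, against 40.3%, 15.7% and 24.2% of all genes. Leaving out 1 array left 3 or 4: NFKB1 and NFKB2 fell short without HK-2 array 1, NFKB2 without HK-2 array 2, and NFKBIE and BIRC3 without either RPTEC/TERT1 array. The median range was 2.01 over the 10 genes and 1.05 over all genes tested, and with normexp 1.80 and 1.70. These shares are descriptions of 4 arrays and carry no test.

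Array against array, without a replicate check, 9 of the 10 genes were more than 2-fold higher on HK-2 array 1 than on HK-2 array 2, and 17.7% of all genes were. This count fell to 4 both with normexp background correction and without scaling between arrays. In RPTEC/TERT1, 7 of the 10 were more than 2-fold lower on array 1 than on array 2, and 22.1% of all genes were. The median difference of the 10 genes was 1.30 and -1.79 in these pairs, against 0.062 and -0.092 over all genes. For the HK-2 arrays this contrast depended on the processing. With normexp the median of the 10 genes was 0.55 and lay below that of all genes, 0.99, with the deposited values it was 1.03 against 0.73, and without scaling 0.37 against -0.86. NFKB2 and RELA, at -0.79 and -0.66, stayed within 2-fold between the RPTEC/TERT1 arrays, and NFKBIZ, at 0.98, ran the other way. Between the arrays numbered 1, 8 of the 10 were more than 2-fold higher on HK-2 (19.6% of all genes), and 3 were past 2-fold with normexp. Between the arrays numbered 2, 8 were more than 2-fold lower on HK-2 (17.8% of all genes), and 4 were past 2-fold without scaling. RELA missed the 2-fold line in both, at 0.84 and -0.99.

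None of the 10 genes differed more than 2-fold between HK-2 array 1 and RPTEC/TERT1 array 2, where 4.9% of all genes did (4 of the 10 did with normexp), and none between HK-2 array 2 and RPTEC/TERT1 array 1, where 6.78% did (3 of the 10 did without scaling). The median absolute difference of the 10 genes was 0.32 and 0.36 in these pairs. The order of HK-2 and RPTEC/TERT1 within these pairs was mixed, with 6 genes higher on the HK-2 array in either pair. NFKBIE, TNIP1, BIRC3 and NFKBIA were higher on RPTEC/TERT1 array 2 than on HK-2 array 1, by 0.58, 0.42, 0.51 and 0.085.

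**Figure D4:**
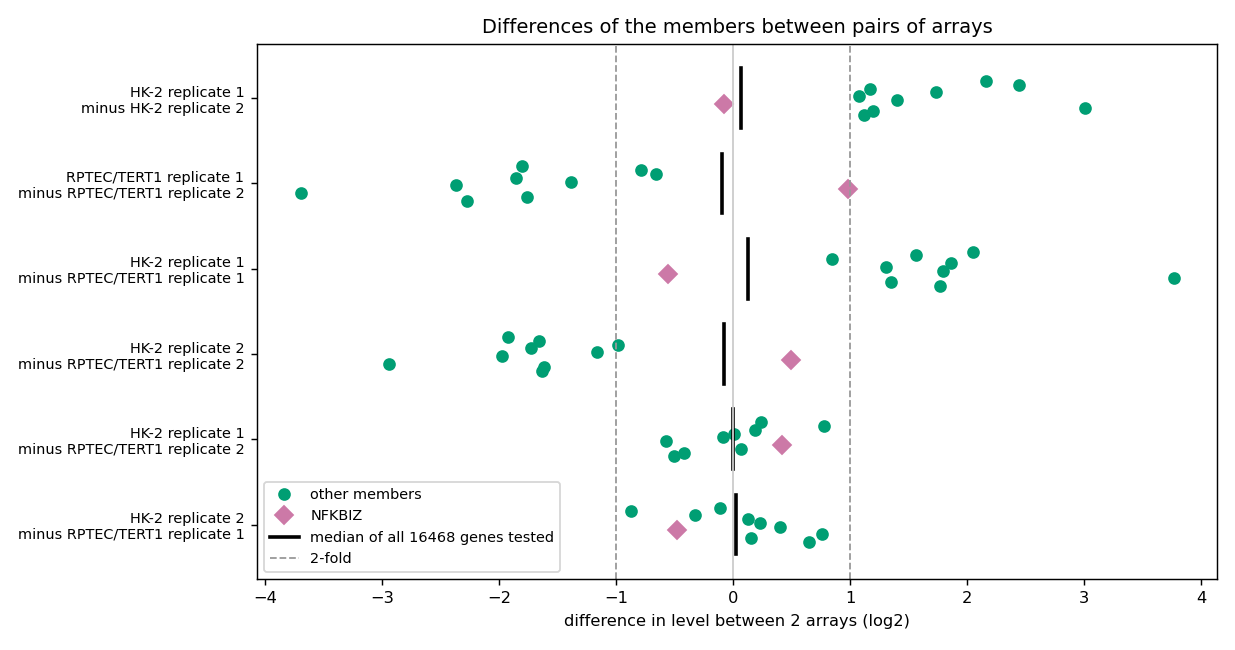
Difference in level (log2) of each of the 10 genes between 2 arrays, for all 6 pairs; green points are 9 genes, the pink diamond is NFKBIZ, black bars are the median of all 16468 genes tested and dashed lines mark 2-fold. Pairs of 1 label or 1 number hold 7 to 9 genes past 2-fold, and pairs that differ in both hold 0.

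The direction of the difference between the labels turned with the array number, which is also the scan date: both arrays numbered 1 were scanned on 1 day and both numbered 2 on another. TNFAIP3 was 3.76 higher on HK-2 than on RPTEC/TERT1 between the arrays numbered 1 and 2.94 lower between those numbered 2, on the log2 scale. NFKBIZ gave the opposite turn, -0.56 and 0.49. Scan date and array number cannot be told apart, and neither can slide and array, since no slide held more than 1 of the arrays.

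Of 40 other genes of the pathway, 39 were tested and 0 differed between the labels in either direction (limma, adjusted p of 0.05). Their ranges were narrower than those of the 10 genes, with a median of 0.95 on the log2 scale against 1.05 over all genes tested. Of the 39, 18 followed the order of the majority (HK-2 array 1 and RPTEC/TERT1 array 2 highest), 13 the order of NFKBIZ and 8 neither. Over all genes tested the shares were 38.9%, 33.2% and 27.9%. A group of 10 held kinases together with their partners IKBKG, TAB1, TAB2 and TAB3, which are not kinases themselves. Of these 10, 6 had the order of NFKBIZ and 2 that of the majority, against 33.2% and 38.9% of all genes tested. Their median range was 0.84. IKBKB, the catalytic subunit of the IκB kinase complex, stood at 0.09, -0.49, 0.08 and 0.05. IKBKE, a kinase related to it that NF-κB induces, was at -3.56 and -3.21 on HK-2 array 1 and RPTEC/TERT1 array 2 and not well above background on the others.

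At the receptor, IL1R1, which binds IL-1β, was at -1.24, -3.92, -4.48 and -1.31, a range of 3.24 that fell to 2.19 with the deposited values and to 1.86 with normexp without the spots of bright local background. IL1RAP, the co-receptor chain, ran the other way at -2.83, -1.54, -1.10 and -2.56, so that receptor and co-receptor were in opposite orders on the same arrays. The IL1RAP range of 1.73 fell to 0.91 with the brightest probe and to 0.85 with the deposited values. With normexp without the spots of bright local background it was 0.92. The decoy receptor IL1R2 was not well above background on any array. MYD88, the adaptor of the receptor, was at 0.29, -1.23, -0.15 and -0.01, a range of 1.52 that fell to 0.60 without scaling and to 0.44 without HK-2 array 2. IRAK2, which prolongs the signal, was at 2.84, 0.78, 0.08 and 2.87, and IRAK3, the IRAK that blocks it, ran opposite at -3.54, -2.01, -1.89 and -3.90. The IRAK3 range of 2.01 fell to 0.91 with normexp without the spots of bright local background. Of the 9 tested genes from the receptor to TRAF6, 5 followed the majority order and 3 that of NFKBIZ, against 38.9% and 33.2% of all genes.

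Among 16 ubiquitin and adaptor proteins 8 followed the majority order and 4 that of NFKBIZ, against 38.9% and 33.2% of all genes tested. TNIP3, a relative of TNIP1, was at -2.74 and -2.53 on HK-2 array 1 and RPTEC/TERT1 array 2 and not well above background on the others, while TNIP2, another relative, ranged over 0.19. BIRC2, the close homologue of BIRC3, was at 1.95, 0.58, 0.92 and 1.72, in the same order as BIRC3 by pairs of arrays but over 1.37 against 2.28. ZC3H12A, an RNase that removes inflammatory mRNAs, came close to a range of 2 with levels of 4.55, 2.58, 2.66 and 4.35. None of REL, NFKBIB, NFKBID and BCL3 ranged over more than 1, and BCL3, a nuclear IκB protein like IκBζ, was at 2.25, 2.52, 2.17 and 2.74.

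**Figure D5:**
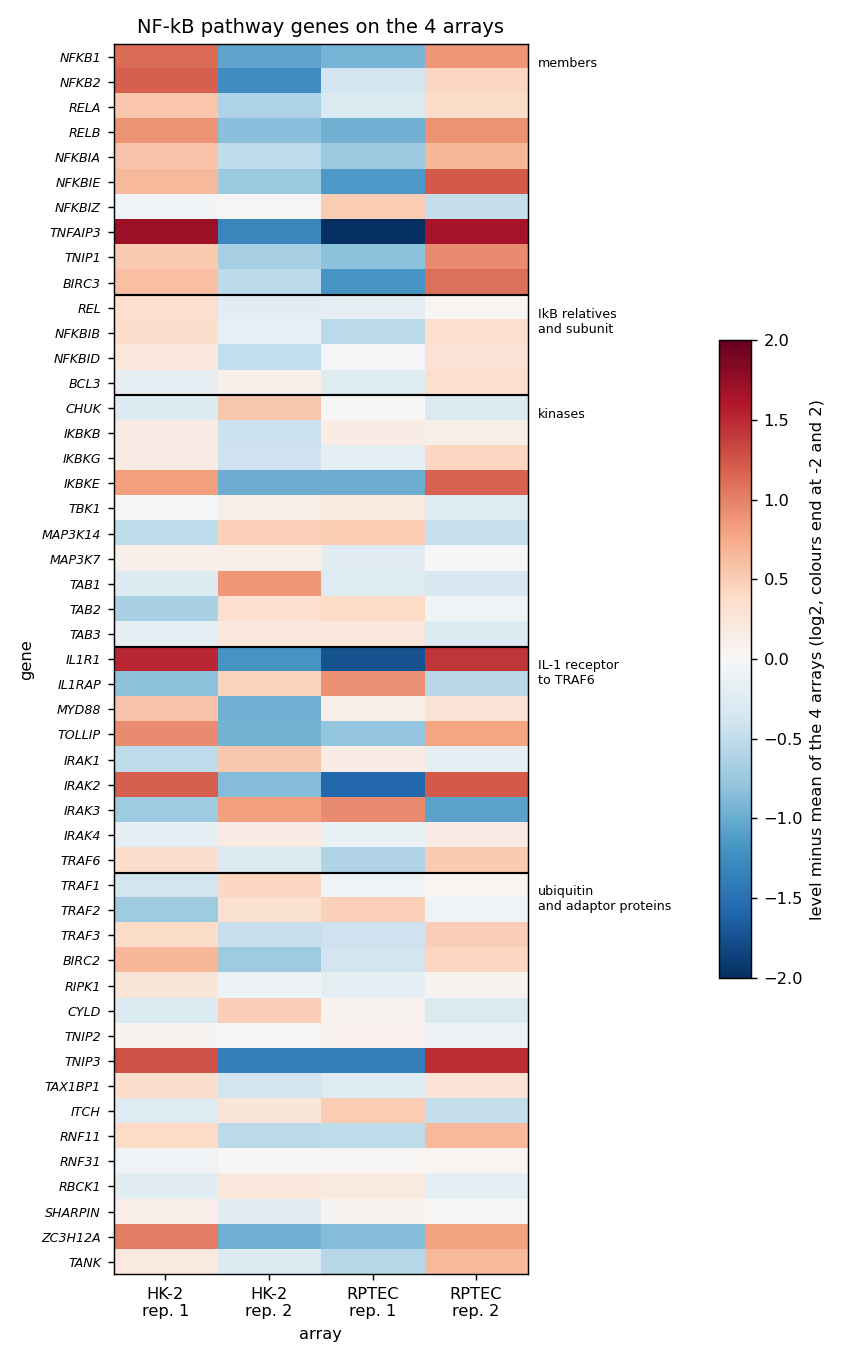
Level of the 10 genes and of the 39 other pathway genes tested on the 4 arrays, each gene minus its own mean over the arrays (log2; colours end at -2 and 2, and TNFAIP3 on RPTEC/TERT1 array 1 lies just past the end). The outer columns, HK-2 array 1 and RPTEC/TERT1 array 2, are red for 9 of the 10 genes. In the group marked kinases, which also holds IKBKG, TAB1, TAB2 and TAB3, 6 of 10 run the other way.

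Genes known as NF-κB targets were read beside their regulators. Of 8 such genes 0 differed between the labels (limma, adjusted p of 0.05), 5 followed the majority order, CCL20 that of NFKBIZ and 2 neither. Over all genes tested 38.9% followed the majority order and 33.2% that of NFKBIZ. SOD2, the mitochondrial superoxide dismutase, was at 7.26, 4.42, 4.42 and 7.10. C3, the central complement component, was at 4.35, 2.23, 2.66 and 4.16. CCL2 covered 11.7 on the log2 scale, with levels of 7.36, -3.29, -4.29 and 7.32, against 3.76 for TNFAIP3, the widest of the regulators. With the deposited values these ranges were 9.66 and 2.92. CCL20 was at 5.51, 5.62, 6.08 and 5.39, with the same high and low array as NFKBIZ.

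Among the 8 genes with a promoter in the table, the ranges with and without a κB match overlapped. With a κB match the ranges were 2.16 for NFKB1, 1.39 for NFKBIA, 0.98 for NFKBIZ, 3.76 for TNFAIP3 and 2.28 for BIRC3. Without a match in the window they were 2.44 for NFKB2, 1.17 for RELA and 1.77 for TNIP1. NFKB1, NFKBIA and NFKBIZ share the same 10-base match, and NFKBIZ differed from the other two in the order of the arrays.

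Likeness was measured as the root mean square difference of gene-centred levels over the 4 arrays, a description with no test, in which 0 means the same differences between arrays. Within the group NFKBIE and BIRC3 were the closest, at 0.13, followed by NFKB1 and RELB at 0.15, and NFKBIZ and TNFAIP3 were the farthest apart at 1.99. Among 13768 genes well above background on all arrays, the nearest to TNFAIP3 were SAA1 (0.042), an acute-phase protein, MTSS1 (0.058) and WTIP (0.11). The nearest to NFKB2 were ZNF83 (0.060), LNPEP (0.10) and MYO6 (0.11), and the nearest to NFKBIE were ATXN7L2 (0.044), ARPC5 (0.056) and CASZ1 (0.072). With 4 arrays that fall into a pair of alike pairs, many genes share such a pattern.

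Some marker genes of cell types moved with the same arrays and others did not, and their part in the levels of the 10 genes was not tested. A summed signal adds probes that are not on a common scale. The brightest probes carry it, and it is compared only between arrays. For the 10 genes, with NFKBIA the brightest on every array, the summed signal relative to the 75th percentile was 180, 79.5, 71.8 and 199. That of 4 epithelial markers was 25.1, 16.6, 12.1 and 28.0, and all 4 had HK-2 array 1 and RPTEC/TERT1 array 2 as the 2 highest arrays (38.9% of all genes tested did). That of 8 proximal tubule markers was 2.24, 1.24, 1.14 and 2.39, a direction carried by ANPEP, at a level of 0.49 and 0.47 on HK-2 array 1 and RPTEC/TERT1 array 2 and at the floor on the others. Of the 5 tubule markers tested, 2 (ANPEP and AQP1) had those arrays highest and 2 had them lowest. LRP2, at -3.34, -1.72, -2.77 and -3.06, and GGT1, at -0.88, -0.56, -0.35 and -0.65, were those with the opposite order. CDH1, the epithelial cadherin, was well above background on HK-2 array 1 and RPTEC/TERT1 array 2 alone, as were ANPEP of the proximal tubule and SLC12A1 of the thick ascending limb. The 4 markers of other tubule segments summed to 0.88, 0.22, 0.22 and 1.15, with UMOD well above background on all 4 arrays and SLC12A3 and AQP2 on none. The 4 fibroblast markers summed to 0.11, 0.75, 0.65 and 0.11, with DCN at -0.61 and -0.87 on HK-2 array 2 and RPTEC/TERT1 array 1 and at or near the floor of -5.37 on the others, with COL1A1 well above background on 3 arrays and COL3A1 and PDGFRA on none. The 4 leukocyte markers summed to 0.94, 1.42, 1.87 and 0.88. PTPRC, CD14 and CD68 were well above background on all 4 arrays and CD3E on 1. CD68, at -0.49, 0.15, 0.62 and -0.54, was the brightest of them on every array. The 4 endothelial markers summed to 0.39, 0.27, 0.20 and 0.25, with CDH5 well above background on all 4 arrays, PECAM1 on 1, and VWF and KDR on none.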

How the data were processed

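RNA of HPTCs labelled HK-2 and RPTEC/TERT1 (2 arrays each), stimulated with IL-1β and Empa, was hybridised, with Cy3 as its label, to 1-colour Agilent arrays. The labels and the methods name different RNA isolation kits. The authors deposited linear spot intensity values of Agilent Feature Extraction 9.5.3.1, with background subtracted and no scaling between arrays, on GRCh37 per the file headers. Log2 values for these spots were also deposited by the authors. The sources used here do not give their processing, and they served as an alternative only. Whether those were scaled or centred between arrays is unknown.

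Control and outlier spots were removed. Each signal was expressed relative to the 75th percentile of all spots other than controls, set to a floor of 0.0242 (a level of -5.37) and taken to log2. Spots were averaged per probe, and probes well above background on at least 1 array were averaged per gene. The labels were compared in limma 3.58.1 (R 4.3.3) by lmFit and eBayes, over 16468 genes that at least 2 arrays had well above background, with Benjamini-Hochberg adjustment. This step was run on simulated data with independent noise on each array. That checks the computation and not how the test behaves on arrays that pair across labels. The number of arrays limits the precision. Past 2-fold means a difference over 1 on the log2 scale between 2 arrays, with no test.

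The 10 genes and all gene lists were chosen with earlier results of these data known, so that no pattern among them is independent evidence. Named genes are the 10, then IL1R1, IL1RAP, MYD88, IKBKB, REL and listed genes whose range passed 2 or that were dim on some array, then the 3 nearest genes to each of the 3 genes of widest range. LCN2, CCL20, TNIP2, BIRC2, BCL3, NFKBIB, NFKBID, ZC3H12A and other markers above background on all arrays were named after their values were seen. Alternatives were normexp, quantile normalization, no scaling, the deposited log2 values, other probe and spot filters, a replicate block and leaving out each array.

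Arrays of the same replicate number did not deviate together, since the correlation of their deviations from the means of their labels was -0.81 across genes.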

Additional observations from a re-analysis of the deposited data

Results flagged for a closer look

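For each of the 10 genes the difference HK-2 minus RPTEC/TERT1 had opposite signs between the arrays numbered 1 and between those numbered 2. Each value rests on 1 array against 1 array, and the change of direction between the numbers was not tested.

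For 9 genes the level was higher on HK-2 array 1 and lower on HK-2 array 2. On the log2 scale the difference between the first arrays and then between the second was 2.04 and -1.92 for NFKB1, 1.56 and -1.66 for NFKB2, 0.84 and -0.99 for RELA, and 1.86 and -1.73 for RELB among the subunits. It was 1.30 and -1.16 for NFKBIA and 1.79 and -1.97 for NFKBIE. For the genes whose proteins act on or bind ubiquitin it was 3.76 and -2.94 for TNFAIP3, 1.35 and -1.61 for TNIP1, and 1.77 and -1.63 for BIRC3. NFKBIZ turned the other way, at -0.56 and 0.49.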

How the results depend on the processing

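In the comparison of the labels limma called 0 of the 10 genes and 0 of all genes under every alternative, leaving out each array included, while at an unadjusted 0.05 it counted 3 to 240 genes and none of the 10. A block for the replicate number also gave 0 calls, and with crossed numbers as a block, chosen after seeing the data, limma also called 0. In this balanced design neither block can change a difference, so the unchanged differences are no check. The signs of the small differences were not stable. With normexp they turned for NFKB1 (-0.44), RELA (0.016), RELB (-0.43), NFKBIA (-0.48), TNFAIP3 (-0.15) and BIRC3 (-0.38), with the deposited log2 values for NFKB1 (-0.098), RELB (-0.032), NFKBIA (-0.081) and BIRC3 (-0.019), with the brightest probe for RELA (0.018), and with normexp without 9 spots of bright local background for NFKBIZ (0.054). When 1 array at a time was left out, so that the lone array of a label was assumed to vary like the others, the median difference ran from -0.85 to 0.87 and each gene changed sign: NFKB1 from -1.02 to 1.14, NFKB2 from -1.27 to 1.17, RELA from -0.66 to 0.51, RELB from -0.86 to 1.00, NFKBIA from -0.62 to 0.77, NFKBIE from -1.28 to 1.10, NFKBIZ from -0.52 to 0.45, TNFAIP3 from -1.44 to 2.26, TNIP1 from -1.02 to 0.75 and BIRC3 from -1.07 to 1.21.

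Counts past 2-fold moved with the background and the scaling. With normexp the 10 genes gave 4 between the HK-2 arrays, 3 between the arrays of replicate 1 and 4 between HK-2 array 1 and RPTEC/TERT1 array 2. There, those 9 spots, all on HK-2 array 1, shifted the fit, and the median of all genes between the HK-2 arrays rose to 0.99, and without these spots (an alternative chosen after seeing the data) it was 0.27. Without scaling, also chosen after seeing the data, the median of all genes there was -0.86, and the 10 genes gave 4 between the HK-2 arrays, 3 between HK-2 array 2 and RPTEC/TERT1 array 1 and 4 between the arrays of replicate 2. Counts over all genes, in place of 5605 between the HK-2 arrays, 5930 and 5555 between arrays of replicate 1 and of replicate 2, 6661 between the RPTEC/TERT1 arrays, 807 between HK-2 array 1 and RPTEC/TERT1 array 2 and 1117 between the remaining arrays, were with normexp 10052, 9677, 3669, 3992, 9336 and 538 in the same order. Without the bright spots they were 3457 and 3667 for replicates 1 and 2, 3992, 272 and 539 for the last 3 pairs. The deposited values gave 3396 for replicate 2 and 3723, 5410 and 508 for the last 3 pairs. Genes well above background on all arrays gave 446 between HK-2 array 1 and RPTEC/TERT1 array 2, and no scaling gave 3935 between HK-2 array 2 and RPTEC/TERT1 array 1. Beyond those named, the cause was not tested.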
